A study of Mus musculus with 6 samples.

Results

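The adipogenic transcription factors examined here are 10 genes chosen by name, which encode PPARγ, members of the C/EBP family, EBF1, KLF15, the nuclear receptors RXRα and LXRα, and the zinc finger factor ZFP423. Rows with these symbols were taken from a table of normalized read counts from adipose tissue of 6 mice. Of the 21456 genes in the table, 9 were members of this list (Pparg, Cebpa, Cebpb, Cebpg, Ebf1, Klf15, Rxra, Nr1h3 and Zfp423), and all 9 passed the filter on low values. Cebpd was not analysed here. The study depleted Ntsr2, a receptor for the peptide neurotensin, in white adipocytes to examine its role in food intake. The 3 control mice were Ntsr2 flox/flox, and the 3 Ntsr2 AKO mice came from Ntsr2 flox/flox mice crossed with Adipoq-cre, in which the adiponectin promoter drives Cre recombinase in adipocytes of every adipose depot. Both groups were fed a chow diet and each library came from a separate mouse. The labels give the tissue as adipose and the study's text as white adipose tissue (WAT), and neither the depot nor the age of these mice is given in the sources used here.

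Adipogenesis is the conversion of a fibroblast-like progenitor into a fat-storing adipocyte. C/EBPβ and C/EBPδ appear early after the stimulus and help switch on PPARγ and C/EBPα, which then maintain each other and drive the genes of lipid storage and insulin response. PPARγ binds DNA as a dimer with RXRα, and the expression of Pparg and Cebpa continues in the mature adipocyte, where these factors keep the cell differentiated.

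The libraries held 54085088 to 66098226 reads assigned to genes, so counting error is small for the members and the 3 mice per group limit the precision. Ntsr2 itself had normalized counts of 83.8, 64.0 and 152.5 in control mice and 3.10, 8.29 and 0 in Ntsr2 AKO mice. Adipocyte transcripts were abundant in every mouse. The summed normalized count of 8 adipocyte markers, Adipoq and Fabp4 among them, was 2317956 to 3359664 in control and 2669177 to 2878557 in Ntsr2 AKO mice. Transcripts of 10 skeletal muscle genes summed to 2844529 in control 5, 88158 in Ntsr2 AKO 4 and 195558 in Ntsr2 AKO 5, against 415 to 1438 in the other 3 mice. Progenitor markers (8 genes, Pdgfra and Dpp4 among them) summed to 85530 to 160987 in control and 106851 to 267748 in Ntsr2 AKO mice, with the highest sum in Ntsr2 AKO 5. Macrophage markers (7 measured genes) summed to 27634 to 82116 and 29089 to 66980. In whole tissue, fewer adipocytes and less RNA per adipocyte cannot be told apart, and the part of these cell types in the values below was not tested.

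The sequences before the start sites of 4 members are shown first, because C/EBP factors act on the promoters of other members and because Pparg, Cebpa and Cebpb carry most of the comparison that follows. Each is the 250 bases before an annotated start site, in the direction of transcription, from RefSeq on GRCm38.p6. Capitals mark matches to a C/EBP sequence (TTGCNNAA), a GC box of the SP and KLF factors (GGGCGG), the TATAAA box of the basal machinery or a cyclic AMP response element (TGACGTCA), each searched on both strands. The Pparg window lies at chr6:115421816-115422065 (plus strand), before Pparg-201, the transcript that encodes the longer protein of 505 residues. The Cebpa window lies at chr7:35119043-35119292 (plus), the Cebpb window at chr2:167688665-167688914 (plus) and the Zfp423 window, before Zfp423-202, at chr8:87959596-87959845 (minus).
Pparg: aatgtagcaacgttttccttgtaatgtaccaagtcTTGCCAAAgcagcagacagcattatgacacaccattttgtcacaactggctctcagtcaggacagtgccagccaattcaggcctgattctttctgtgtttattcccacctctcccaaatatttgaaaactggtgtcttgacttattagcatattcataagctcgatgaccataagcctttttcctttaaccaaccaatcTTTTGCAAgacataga
Cebpa: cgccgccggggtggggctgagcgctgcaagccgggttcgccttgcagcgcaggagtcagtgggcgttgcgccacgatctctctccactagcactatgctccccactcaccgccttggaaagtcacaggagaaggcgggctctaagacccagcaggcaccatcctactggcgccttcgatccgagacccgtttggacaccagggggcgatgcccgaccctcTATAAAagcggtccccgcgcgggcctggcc
Cebpb: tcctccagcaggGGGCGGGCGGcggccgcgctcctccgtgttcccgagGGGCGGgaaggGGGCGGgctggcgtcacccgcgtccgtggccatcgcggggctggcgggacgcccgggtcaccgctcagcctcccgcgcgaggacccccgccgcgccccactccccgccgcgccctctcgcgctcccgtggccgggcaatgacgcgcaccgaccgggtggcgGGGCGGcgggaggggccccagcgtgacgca
Zfp423: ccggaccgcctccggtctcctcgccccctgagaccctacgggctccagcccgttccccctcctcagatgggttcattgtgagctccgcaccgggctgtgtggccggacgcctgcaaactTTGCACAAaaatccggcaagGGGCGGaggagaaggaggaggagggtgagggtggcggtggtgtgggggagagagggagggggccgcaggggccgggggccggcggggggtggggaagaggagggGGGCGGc

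The Pparg window held 2 C/EBP matches, at -215 to -208 and at -16 to -9 from the start site, and the Zfp423 window held 1 at -131 to -124. Of 15 windows for the 9 members, these 2 alone held such a match, and 9.56% of all 32851 RefSeq windows of this length did. The other Pparg windows, near the starts of Pparg-202 and Pparg-206, and the other Zfp423 window, before Zfp423-203, held none. The Cebpa window had the TATAAA box at -30 to -25, found in 12.4% of all windows. The Cebpb window, with 81.6% G and C, had 5 GC boxes, of which the first 2 overlap. A GC box occurred in 7 of the 15 windows and in 32.7% of all windows. The cyclic AMP response element was in 0 of the 15 windows and in 1.55% of all. These are letter matches, and binding was not measured.

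Compared per kilobase of exon, the members spanned a wide range of levels over the 6 mice. Cebpa, which encodes a factor of terminal adipocyte differentiation and insulin sensitivity, had the highest level, with a mean of 17976 normalized counts per kb (range 14126 to 23646). Cebpb followed with 3190 per kb (2041 to 4500.1) and Pparg with 2864 per kb (1600 to 4851), and the ranges of this pair overlapped. Nr1h3 (2316 per kb), Rxra (1930 per kb) and Klf15 (1924 per kb) came next, each overlapping the one before it. Cebpg had 1148 per kb (1018 to 1374), which did not overlap the range of Klf15 (1382 to 2317). Ebf1 had 965 per kb (740 to 1260), overlapping Cebpg. Zfp423 had the lowest level, 339 per kb (213 to 513), below every value of Ebf1. Exon lengths are the merged exons of all transcripts of a gene in GENCODE release M21. Where a gene has several transcripts, this length can exceed that of each transcript, which lowers its value per kb. Of the Cebpb exon, 20.7% overlaps Tmem189 on the opposite strand. The order of the members is therefore approximate.

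**Figure D1:**
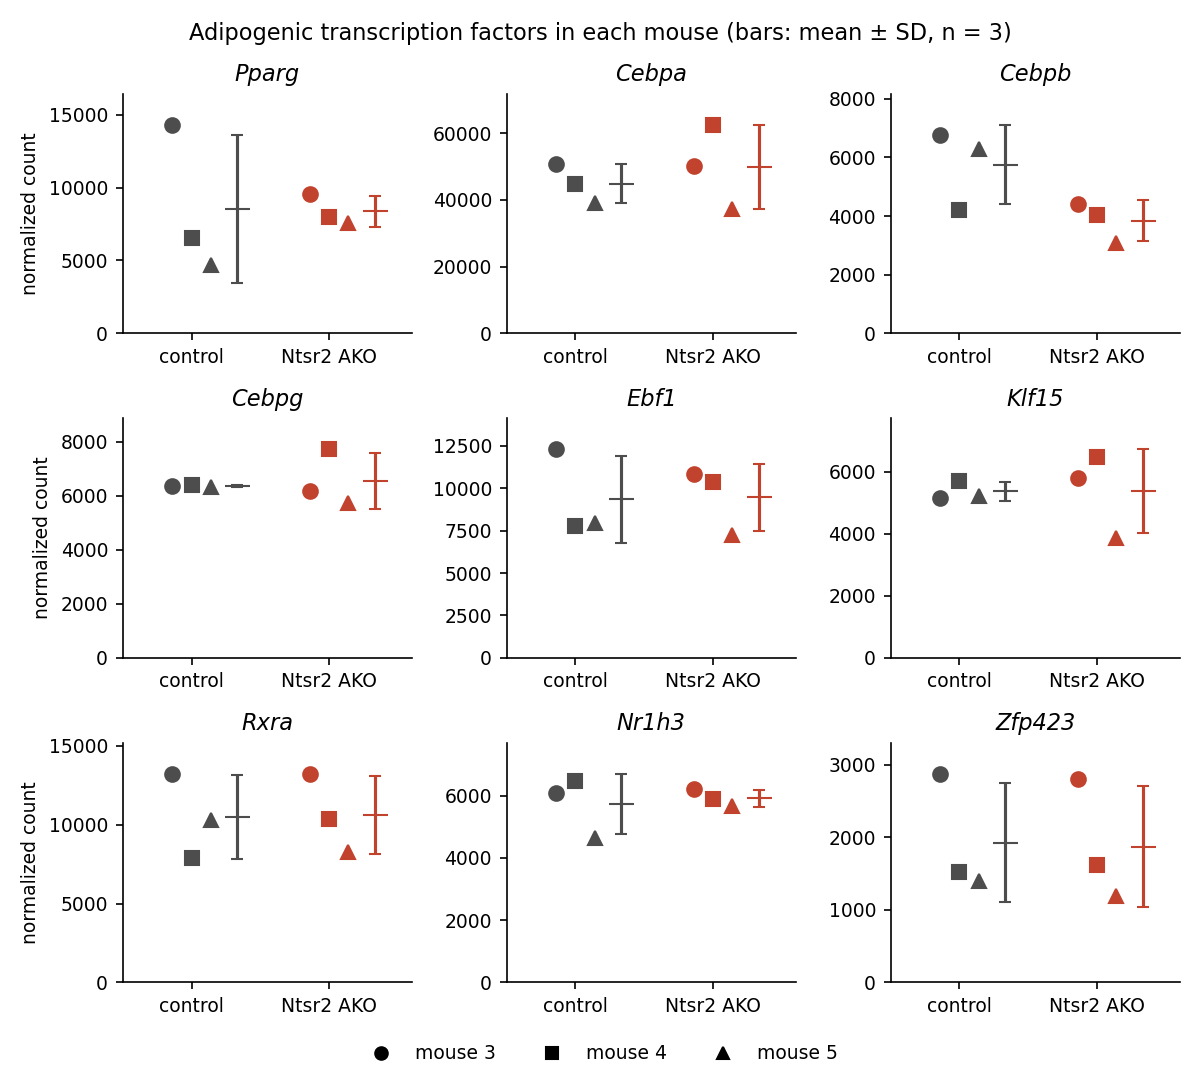
Normalized counts (linear axis from 0) of the 9 members in each mouse. Symbols give the number of the mouse, and bars show the mean ± SD of the 3 mice in each group. In every panel the values of the control and Ntsr2 AKO mice overlap, and the highest Pparg value, 14326, is in control 3.

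None of the 9 members passed an adjusted p of 0.05 between control and Ntsr2 AKO mice in limma, while 0.00619% of all 16157 genes tested did. Ntsr2, the targeted gene, did not pass either, with a log2 fold change of -4.81 (limma adjusted p = 0.499). The adjusted p of the members ranged from 0.581 for Cebpb to 0.985 for Rxra. At an unadjusted p under 0.05, 1 of the 9 members (Cebpb) was lower in Ntsr2 AKO mice, where 5.27% of all genes were, and 0 were higher, where 3.08% of all genes were. Both shares rest on all 6 mice, and without Ntsr2 AKO 4 the genes behind them fell from 852 to 414 lower and from 497 to 232 higher. All 3 Ntsr2 AKO mice lay under the 3 control mice for 0 of the 9 members and 8.16% of all genes, and over them for 0 members and 6.82% of all genes. The median log2 fold change of the members was 0.03, and that of all genes was -0.01. DESeq2 on the recovered reads, which called 1.36% of all genes at an adjusted p of 0.05, also called 0 members. A p above the threshold does not show equal expression, and the 95% intervals given below state which differences these 6 mice could not exclude.

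**Figure D2:**
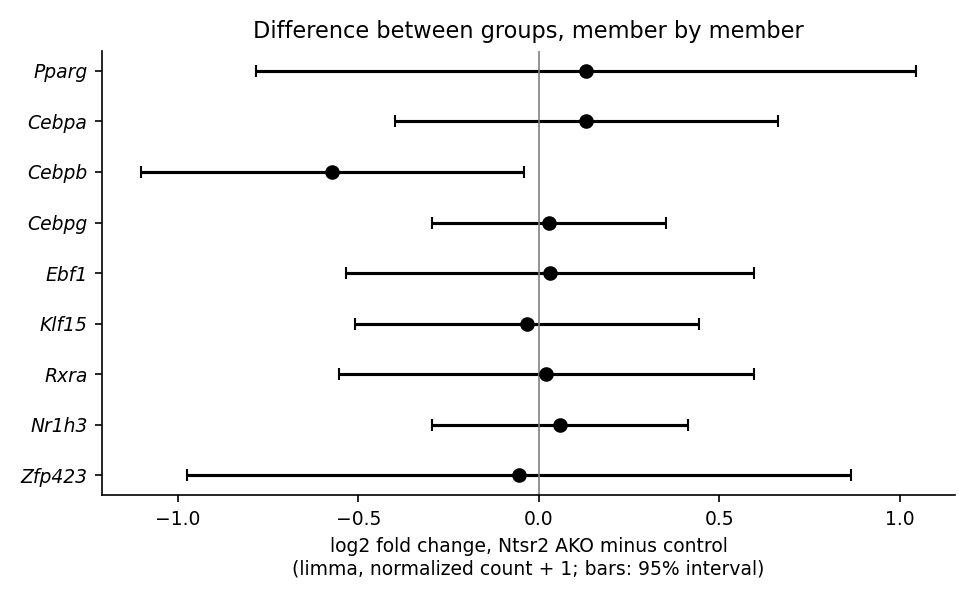
Log2 fold change (Ntsr2 AKO minus control, on the log2 scale of the normalized count + 1) of each member with its 95% interval from limma. The interval of Cebpb runs from -1.10 to -0.04, and the intervals of the other 8 members include 0.

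Pparg encodes the nuclear receptor without which adipocytes do not form, and maps to chromosome 6, plus strand (115360951 to 115490399, GRCm38). Its normalized counts were 14326, 6535 and 4724 in control mice 3, 4 and 5, and 9602, 7987 and 7567 in Ntsr2 AKO mice 3, 4 and 5. Control mice therefore enclosed all 3 Ntsr2 AKO mice, with the highest and the lowest value of the 6. The means were 8528 ± 5102 (SD, n = 3) and 8385 ± 1074 (SD, n = 3), and the log2 fold change (log2FC, the difference Ntsr2 AKO minus control of the group means of log2 normalized counts) was 0.13 with a standard error (SE) of 0.38 (limma adjusted p = 0.939). Its 95% interval, -0.78 to 1.04 on the log2 scale, corresponds to 0.581 to 2.06 times the control level. The spread came from the control group, in which the highest value was 3.03 times the lowest, against 1.27 times in Ntsr2 AKO mice. Without control 3 the log2 fold change of Pparg was 0.59 (SE 0.19, limma unadjusted p = 0.0244, adjusted p = 0.573), and without control 5 it was -0.21. The gene has 5 protein-coding transcripts in GENCODE M21, among them Pparg-201 with 505 residues and Pparg-202 and Pparg-204 with 475 residues, and a count per gene does not separate them.

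Cebpa, on the plus strand of chromosome 7 (35119293 to 35121928), had normalized counts of 50704, 44806 and 39008 in control mice and 50228, 62331 and 37235 in Ntsr2 AKO mice. The Ntsr2 AKO group held both the highest and the lowest of the 6 values. Means were 44840 ± 5848 (SD, n = 3) and 49931 ± 12550 (SD, n = 3), with a log2FC of 0.13 (SE 0.22, limma adjusted p = 0.886, 95% interval -0.40 to 0.66). Without Ntsr2 AKO 4 the log2FC of Cebpa was -0.04.

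Cebpb encodes an early C/EBP factor that responds to hormones and cytokines, and maps to chromosome 2, plus strand (167688915 to 167690418). Normalized counts were 6768, 4214 and 6288 in control mice and 4416, 4031 and 3070 in Ntsr2 AKO mice. The 2 highest values were those of control 3 and control 5, but control 4 lay below Ntsr2 AKO 3, so the groups overlapped. The means were 5757 ± 1357 (SD, n = 3) and 3839 ± 693 (SD, n = 3). On the log2 scale Cebpb had a difference of -0.57, or 0.673 times the control level (SE 0.22, limma unadjusted p = 0.0383, adjusted p = 0.581). The fold change of Cebpb was below 0 in each of 18 alternative analyses, and the unadjusted p was under 0.05 in 9 of the 18. The fold change ranged from -0.78 without control 4 to -0.27 without the 3 libraries that held skeletal muscle transcripts. That last fit left Ntsr2 AKO 3 alone in its group. In the other alternatives the adjusted p of Cebpb ranged from 0.314 in DESeq2 to 0.974 without Ntsr2 AKO 4. The gene Tmem189, on the opposite strand, overlaps 312 bases or 20.7% of the Cebpb exon, and the library kit as named does not mark strand, so reads from this stretch cannot be assigned to either gene. Tmem189 had normalized counts of 3117, 2177 and 1987 in control and 2467, 2420 and 1923 in Ntsr2 AKO mice, with overlapping groups.

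Cebpg encodes a C/EBP protein that lacks an activation domain and dimerizes with other family members, and it maps to chromosome 7, minus strand (35046422 to 35056573), 62719 bases from Cebpa. Its normalized counts were 6353, 6393 and 6342 in control and 6194, 7721 and 5720 in Ntsr2 AKO mice. The control mice were nearly alike (highest to lowest 1.01), and the Ntsr2 AKO mice lay on both sides of them. The log2FC of Cebpg was 0.03 (SE 0.14, limma adjusted p = 0.964, 95% interval -0.30 to 0.35). This was the narrowest interval among the members.

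Rxra encodes RXRα, a partner of PPARγ and LXRα on DNA, and lies on chromosome 2 (27676440 to 27762957, plus strand). It had normalized counts of 13212, 7910 and 10322 in control and 13192, 10344 and 8255 in Ntsr2 AKO mice. The 2 highest values, those of the mice numbered 3, were nearly equal in the genotypes, the groups overlapped, and the log2FC of Rxra was 0.02 (SE 0.24, adjusted p = 0.985, 95% interval -0.55 to 0.60).

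Nr1h3 encodes LXRα, an oxysterol-sensing receptor that is a target of PPARγ, and lies on chromosome 2 (91184061 to 91202834, minus strand). Its normalized counts were 6101, 6460 and 4641 in control and 6209, 5883 and 5659 in Ntsr2 AKO mice, all 3 of the latter within the range of the control group. The log2FC of Nr1h3 was 0.06 (SE 0.15, adjusted p = 0.930, 95% interval -0.30 to 0.41).

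Klf15 encodes a Krüppel-like factor induced during differentiation that acts with C/EBP factors on metabolic genes such as Slc2a4. It lies on chromosome 6 (90462576 to 90475238, plus strand). Normalized counts were 5165, 5712 and 5229 in control and 5785, 6467 and 3856 in Ntsr2 AKO mice. As with Cebpg and Cebpa, Ntsr2 AKO 4 was the highest and Ntsr2 AKO 5 the lowest of the 6 mice. The group means of Klf15, 5369 ± 299 and 5369 ± 1354 (SD, n = 3 each), were nearly identical, and the log2FC was -0.03 (SE 0.20, adjusted p = 0.974, 95% interval -0.51 to 0.44).

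Ebf1 and Zfp423 encode factors that act upstream of Pparg in the progenitor. Ebf1 (chromosome 11, 44617317 to 45008091, plus strand) had normalized counts of 12295, 7773 and 7961 in control and 10869, 10354 and 7218 in Ntsr2 AKO mice, and a log2FC of 0.03 (SE 0.24, adjusted p = 0.978, 95% interval -0.53 to 0.60). Zfp423 (chromosome 8, 87661810 to 87959595, minus strand) had 2876, 1519 and 1397 in control and 2808, 1619 and 1197 in Ntsr2 AKO mice. In both genotypes the mouse numbered 3 had the highest Zfp423 value, and the remaining 4 mice lay between 1197 and 1619. The log2FC of Zfp423 was -0.05 (SE 0.39, adjusted p = 0.977, 95% interval -0.97 to 0.86). It was 0.02 after quantile normalization and with a skeletal muscle score as covariate, so its sign was not fixed.

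**Figure D3:**
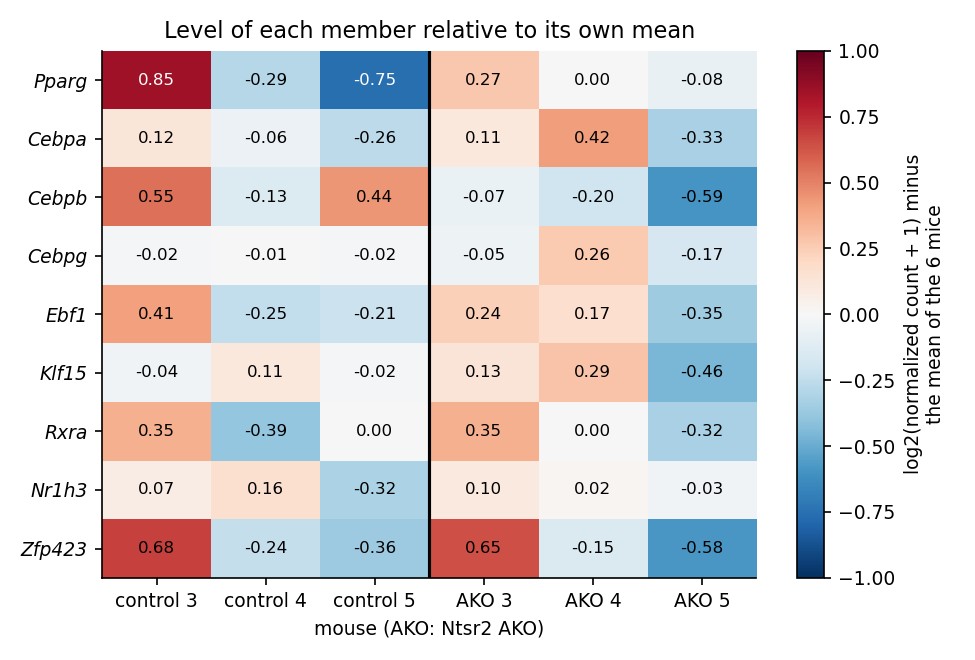
Log2(normalized count + 1) of each member in each mouse, minus the mean of that member over the 6 mice (colour and printed value). Pparg, Cebpa, Ebf1, Rxra, Nr1h3 and Zfp423 are above their mean in control 3 and Ntsr2 AKO 3, and every member is below its mean in Ntsr2 AKO 5.

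Differences between mice of the same genotype were larger than those between genotypes for most members. The within-group SD on the log2 scale was 0.60 for both Pparg and Zfp423, and 22.6% of all genes tested had a larger one. It was 0.16 for Cebpg and 0.19 for Nr1h3, where 79.0% and 72.0% of genes had a larger SD. The mouse numbered 3 was the highest of its group in both genotypes for 5 of the 9 members (Pparg, Cebpb, Ebf1, Rxra and Zfp423), as it was for 15.6% of all genes. Among Ntsr2 AKO mice, mouse 5 was the lowest for all 9 members and for 37.0% of all genes. These patterns were noticed in the data and received no test. In control 3 the progenitor markers had their lowest sum (85530), and in Ntsr2 AKO 5 their highest (267748), while the adipocyte markers had sums of 2410110 and 2878557 in these mice. Ntsr2 AKO 3, the other mouse numbered 3, had a progenitor sum of 116400, above that of Ntsr2 AKO 4 (106851). Whether cell composition is part of the pattern was not tested.

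The members differed in how alike their profiles over the 6 mice were, measured as the root mean square distance between centred log2 values. Ebf1 and Rxra were the closest pair of members (0.13), followed by Cebpg and Klf15 (0.15) and by Cebpa and Klf15 (0.16). Pparg and Cebpb were the farthest apart (0.57). Among all genes tested, the 3 profiles closest to that of Pparg were those of Cd247 (0.08), the T-cell receptor ζ chain gene, 4930458D05Rik (0.13) and Gimap1 (0.13). Cd247 had normalized counts of 208.0, 91.8 and 71.0 in control and 154.8, 132.7 and 113.3 in Ntsr2 AKO mice, the same order of mice as Pparg. With 6 mice and 16157 genes, close profiles are to be found for any gene, and nothing about function was read from them.

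The balance of Cebpa and Cebpb within a mouse was examined after their values were seen, because a ratio of genes in the same library does not depend on the size factor. The ratio of Cebpa to Cebpb normalized counts was 7.49, 10.6 and 6.20 in control mice and 11.4, 15.5 and 12.1 in Ntsr2 AKO mice. Every Ntsr2 AKO mouse lay above every control mouse, with means of 8.11 ± 2.28 and 13.0 ± 2.18 (SD, n = 3 each). The ratio of Cebpa to a gene was higher in every Ntsr2 AKO mouse for 7.14% of all 16156 other genes, and for 1 of the 8 other members. The ratios of Cebpa to the remaining 7 members overlapped between the groups. As the pair was picked for its values, no test is given.

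**Figure D4:**
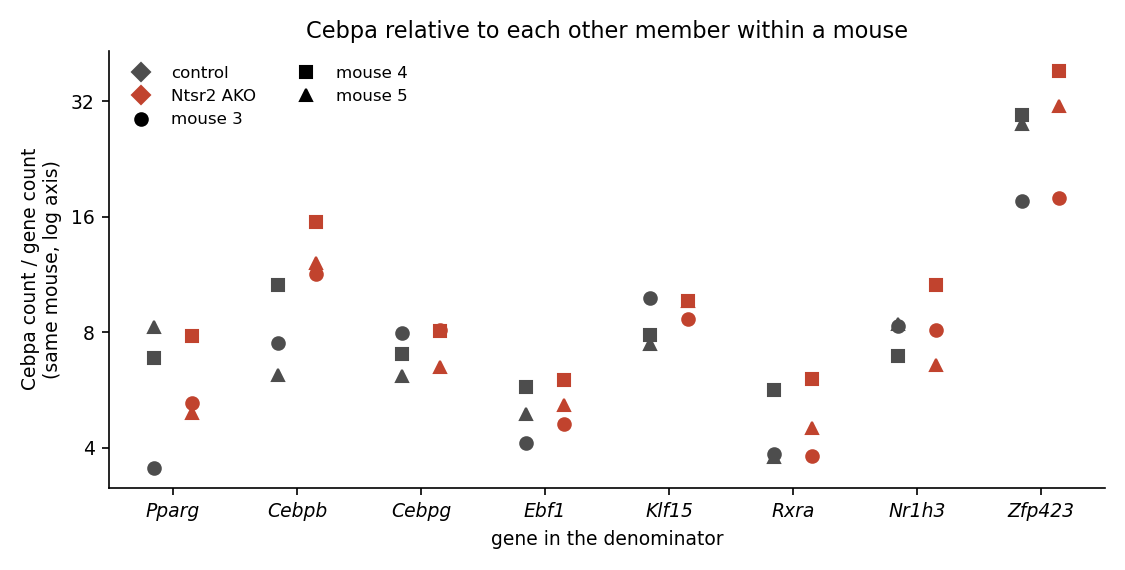
Ratio of the Cebpa count to the count of each other member in the same mouse (log axis). Colours give the group and symbols the number of the mouse. The ratio to Cebpb is 6.20 to 10.6 in control mice and 11.4 to 15.5 in Ntsr2 AKO mice, and the other 7 ratios overlap.

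Other factors that promote adipogenesis were described with a list of 17 genes, all of them tested. At an unadjusted p under 0.05, 2 of these were lower in Ntsr2 AKO mice (5.27% of all genes) and 1 was higher (3.08%). The median log2FC was -0.01, the same as for all genes. Without control 3 the higher count was 4, and that of all genes was 603. The lower count was 1 without Ntsr2 AKO 4 (414 of all genes) or Ntsr2 AKO 5 (596). Ebf2, an EBF family member that also marks beige and brown adipocyte precursors, had normalized counts of 1353, 1587 and 1255 in control and 2111, 3403 and 2659 in Ntsr2 AKO mice, without overlap. Its log2FC was 0.94 (SE 0.20, limma unadjusted p = 0.0022, adjusted p = 0.499). In DESeq2 its adjusted p was 0.00638, the lowest over the alternatives, and in edgeR it did not pass 0.05. Egr2, an early factor upstream of Cebpb in cultured cells, had a log2FC of -1.79 (limma adjusted p = 0.523) and Klf6, which represses the preadipocyte gene Dlk1, one of -0.64 (adjusted p = 0.558), both with every Ntsr2 AKO mouse below every control mouse. Klf9 had a log2FC of -1.06 with overlapping groups (adjusted p = 0.597).

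Of 21 factors that restrain adipogenesis, 1 was lower at an unadjusted p under 0.05 (5.27% of all genes) and 0 were higher (3.08%). Their median log2FC was -0.12. Without control 3 the higher count was 3, and that of all genes was 603. The lower count was 2 without Ntsr2 AKO 3 (1101 of all genes) or Ntsr2 AKO 4 (414). Runx2, the master factor of bone formation, had normalized counts of 618, 394 and 950 in control and 324, 162 and 274 in Ntsr2 AKO mice, a log2FC of -1.33 (SE 0.39, limma adjusted p = 0.523). Sox9 had a log2FC of -1.05, Tsc22d3 (GILZ, a glucocorticoid-induced repressor of Pparg) one of -0.75 and Zfp521, which opposes the action of EBF1 and ZFP423, one of 0.43, all 3 with overlapping groups and adjusted p values from 0.614 to 0.678.

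Among 21 partners and coregulators of the nuclear receptors, 0 were higher at an unadjusted p under 0.05, where 3.08% of all genes were. Their median log2FC was -0.09. The higher count was 1 without control 5 or Ntsr2 AKO 5 and in DESeq2, and 2 after quantile normalization. Ppard had a log2FC of -0.47 and Rxrg one of 0.60 (adjusted p = 0.600 for both, groups overlapping). Hdac3, a histone deacetylase of corepressor complexes, had one of 0.20 (limma adjusted p = 0.643), with all 3 Ntsr2 AKO mice above the control mice.

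The genes that PPARγ and C/EBPα act on followed no single direction. Of 28 target genes, 11 had a fold change below 0 and 17 above, and the median log2FC was 0.04. At an unadjusted p under 0.05, 1 was lower (5.27% of all genes) and 2 were higher (3.08% of all genes). The lower count was 0 without control 3, Ntsr2 AKO 4 or Ntsr2 AKO 5 and after quantile normalization, and the higher count was 1 without control 5 or Ntsr2 AKO 4. Angptl4, an inhibitor of lipoprotein lipase that fasting and PPAR ligands induce, had normalized counts of 56625, 45018 and 44740 in control and 39904, 30919 and 24355 in Ntsr2 AKO mice, without overlap (log2FC -0.64, SE 0.22, limma adjusted p = 0.557). Cidea, a lipid droplet protein of brown and beige fat, was at 2134, 4167 and 3345 and at 4513, 5122 and 6410, also without overlap (log2FC 0.77, SE 0.26, adjusted p = 0.558). Acvr1c, which encodes the receptor ALK7 that restrains lipolysis, had a log2FC of 0.51 and Adig (adipogenin) one of 0.38, with overlapping groups and adjusted p values of 0.565 and 0.652. Adipoq, the gene of the adipocyte hormone adiponectin, had a log2FC of 0.01 (adjusted p = 0.993).

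LXR target genes (12 tested) had a median log2FC of -0.06. At an unadjusted p under 0.05, 2 were lower (5.27% of all genes) and 1 was higher (3.08% of all genes). These counts were not stable. The lower count was 0 without control 3, control 4, Ntsr2 AKO 4 or Ntsr2 AKO 5, after quantile normalization and without the trend, and the higher count was 0 without control 5, Ntsr2 AKO 4 or Ntsr2 AKO 5 and 2 without control 3. Pltp, a phospholipid transfer protein, had normalized counts of 9201, 11433 and 7533 in control and 7443, 5373 and 6489 in Ntsr2 AKO mice (log2FC -0.54, limma adjusted p = 0.565). The cholesterol exporter genes Abca1 and Abcg1 had log2FCs of opposite sign, 0.33 (adjusted p = 0.583, no overlap) and -0.96 (adjusted p = 0.593, overlap). Mylip, whose product degrades the LDL receptor, had one of 0.32 with overlapping groups (adjusted p = 0.687).

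The immediate early genes, which respond to stimuli within minutes and include factors that precede Cebpb in cultured preadipocytes, stood lower in Ntsr2 AKO mice. Of 9 such genes, 7 were lower at an unadjusted p under 0.05, where 5.27% of all genes were. Each of the 7 had every Ntsr2 AKO mouse below every control mouse, as 8.16% of all genes did. The median log2FC was -1.30. Without the 3 libraries that held skeletal muscle transcripts, which left Ntsr2 AKO 3 alone in its group, this median was -0.83. Egr1 fell past the adjusted threshold, from 2411, 2020.0 and 2627 normalized counts in control mice to 513, 407 and 507 in Ntsr2 AKO mice (log2FC -2.30, SE 0.16, limma adjusted p = 0.0442). Its adjusted p was above 0.05 with each mouse left out, from 0.0974 to 0.449, and 0.0512 in edgeR. In DESeq2 the adjusted p of Egr1 was 5.8e-30. Fos, Junb and Fosb had log2FCs of -1.92, -2.40 and -3.23 (limma adjusted p = 0.160, 0.499 and 0.522). Their adjusted p was at most 3.1e-04 in DESeq2, and none of them passed 0.05 in edgeR. The largest member difference, that of Cebpb (-0.57), was smaller in size than those of Egr1, Fos, Junb and Fosb. Over all 9 immediate early genes the log2FC ran from -3.23 to -0.43.

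**Figure D5:**
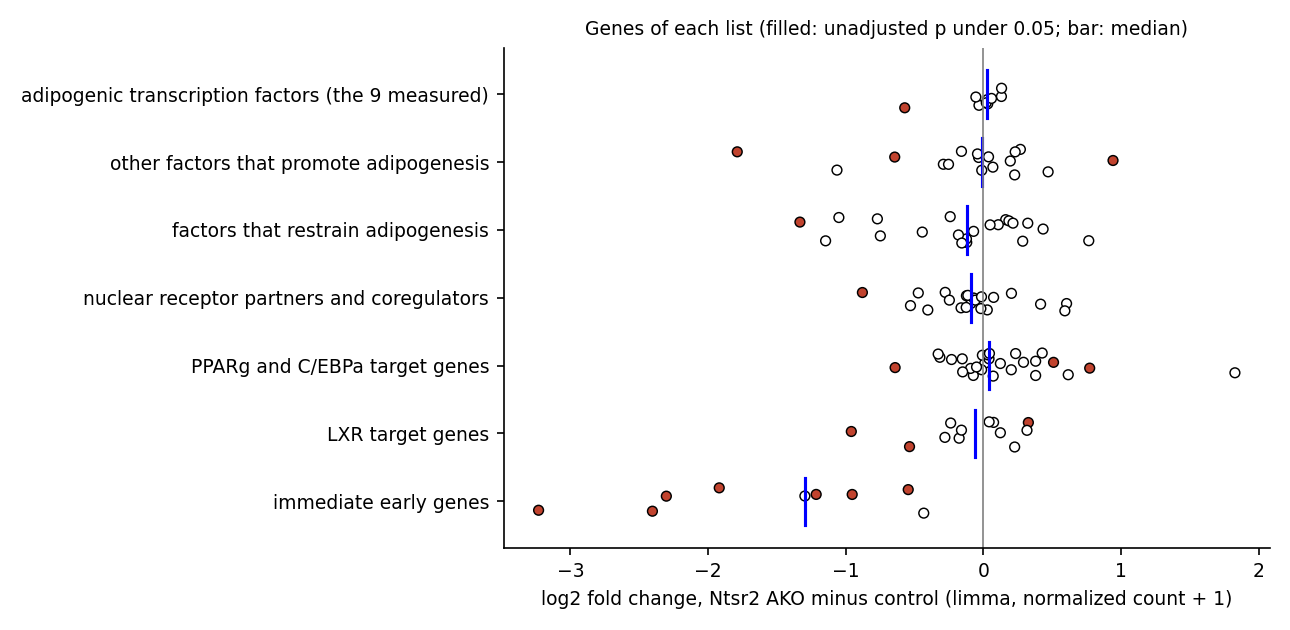
Log2 fold change (Ntsr2 AKO minus control, limma) of every tested gene of 7 lists, with the median of each list as a bar and genes at an unadjusted p under 0.05 filled. Of the 9 adipogenic transcription factors, 8 range from -0.05 (Zfp423) to 0.13 and Cebpb lies at -0.57, while 7 of the 9 immediate early genes are filled and below 0.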

How the data were processed

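Total RNA from adipose tissue of 6 mice was sequenced as poly(A)-selected paired-end libraries. Trimmomatic, HISAT2 and StringTie served the authors for trimming, alignment and counting, and the build in the submitters' processing notes is mm10. The deposited values are normalized counts (a signal), each a gene's read count divided by a size factor of its mouse, so a value depends on the composition of that library. Division by the step of each column gave whole reads for 100% of values within a tolerance of 0.01. Groups came from the genotype label, and 0 columns of values were left unused.

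Values were analysed as log2(normalized count + 1) with limma 3.58.1 in R 4.3.3 (eBayes with trend, 3 mice against 3) over the 16157 genes with a mean of at least 10, with Benjamini-Hochberg adjustment over all of them and a threshold of 0.05. A fold change on this scale understates the change of low genes. A test for counts was not the main test, since the deposited values are normalized, although whole reads could be recovered from them. DESeq2, an alternative here, is the test that the study's methods name for comparing groups. Alternatives were pseudocounts of 0.1 and 5, the omission of the filter, a minimum mean of 50, quantile normalization, no trend, a replicate block, edgeR 4.0.16 and DESeq2 1.42.0 on the recovered reads, a skeletal muscle score as covariate and the omission of each mouse. Omission of the 3 libraries with skeletal muscle transcripts and of both mice numbered 3 was chosen after seeing the data. The first of these omissions left Ntsr2 AKO 3 alone in its group. The procedures were run on simulated data with changes larger than that of any member, so recovery of changes as small as theirs was not tested.

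The members, the gene lists and the tests were chosen with earlier results of these data known. Genes named are the members, Ntsr2, list genes past the threshold, from each of 6 lists the 4 with the smallest p, and the 3 profiles nearest to Pparg. A gene that this rule names is not reported here. Adipoq, Tmem189 and the genes in the closing observations were named after their values were seen. Marker lists of endothelial, mesothelial, lymphocyte, epithelial and brown adipocyte genes are given with the closing observations. Positions are from GENCODE M21 (GRCm38) and promoter windows from RefSeq, in which 9 of the 10 members were found.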

Additional observations from a re-analysis of the deposited data

How the results depend on the processing

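No member passed an adjusted p of 0.05 in any of the 18 alternatives, and the lowest adjusted p was 0.314 (Cebpb in DESeq2). The count of members lower at an unadjusted p under 0.05 was 0 instead of 1 after quantile normalization, without the trend, with the skeletal muscle covariate and without both mice numbered 3. It was 0 to 1 with 1 mouse left out. The count higher was 0 to 1 with 1 mouse left out (Pparg without control 3). Over all genes, 219 passed in DESeq2. The count was 0 without a filter, without the trend, in edgeR, with the covariate, without both mice numbered 3 and with any single mouse left out (0 to 0). edgeR had 792 lower and 531 higher genes at an unadjusted p under 0.05, limma 852 and 497, and quantile normalization 612 and 633, so the majority of lower over higher calls did not hold under that scaling. The lower and higher calls were 414 and 232 without Ntsr2 AKO 4, 596 and 320 without Ntsr2 AKO 5, and 552 and 503 without control 5. The background shares in the report rest on the limma counts with all mice. The cause of these shifts was not tested.

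With the replicate block, 0 genes passed an adjusted p of 0.05, 866 were lower and 437 higher at an unadjusted p under 0.05, and Cebpb had an unadjusted p of 0.0374 (limma). The correlations of the deviations of same-numbered mice across genes were 0.45, -0.24 and 0.41 for the numbers 3, 4 and 5. Mice 3 and 5 of both groups correlated best with their own number, and mouse 4 of neither group did. With the block the SE of Pparg was 0.26 instead of 0.38, and that of Cebpg was 0.14 in both fits. Same-numbered mice are different animals and the labels name no pairs, so the numbers were not treated as pairs.

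Signs of fold changes close to 0 were not stable. Pparg was -0.016 in edgeR, -0.017 in DESeq2 and -0.011 without the 3 muscle-containing libraries, Klf15 was 0.077 after quantile normalization, 0.011 in edgeR, 0.0062 in DESeq2 and 0.091 without those libraries, and Zfp423 was 0.019 after quantile normalization, 0.022 with the covariate and 0.43 without those libraries. Without the same libraries Cebpg was -0.041, Nr1h3 -0.016 and Adig -0.085. That fit left Ntsr2 AKO 3 alone in its group. With 1 mouse left out, the fold change ranged from -0.21 to 0.59 for Pparg, -0.044 to 0.33 for Cebpa, -0.78 to -0.42 for Cebpb, -0.096 to 0.12 for Cebpg, -0.085 to 0.25 for Ebf1, -0.18 to 0.19 for Klf15, -0.17 to 0.20 for Rxra, -0.086 to 0.15 for Nr1h3, -0.39 to 0.27 for Zfp423, -0.061 to 0.71 for Cd247, -0.096 to 0.62 for 4930458D05Rik and -0.087 to 0.60 for Gimap1. Depth does not limit these genes, and 3 mice per group do.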

Other observations

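The EBF family, to which Ebf1 belongs, had a fold change above 0 for all 4 of its genes, as had 7921 of all 16157 genes tested. That of Ebf1 was 0.03 and fell below 0 without control 4, control 5, Ntsr2 AKO 3 or Ntsr2 AKO 4. Ebf3 had normalized counts of 2265, 1207 and 1786 in control and 2111, 2864 and 2148 in Ntsr2 AKO mice (log2FC 0.47, limma adjusted p = 0.643), and Ebf4, a gene with low counts, had 8.28, 11.3 and 23.0 against 22.7, 51.8 and 33.4 (log2 fold change 1.32, adjusted p = 0.609). The groups of both genes overlapped. Among 15 tested KLF genes, 9 had a fold change below 0 and 6 above. Cebpz, named for its binding to the CCAAT element but not a bZIP factor of the C/EBP family, was lower in every Ntsr2 AKO mouse than in every control mouse (log2 fold change -0.37, adjusted p = 0.565).

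Single mice stood apart in a few factors and adipocyte genes. Irf4, a fasting-induced factor of adipocytes that also restrains adipogenesis, had 17644 normalized counts in Ntsr2 AKO 3 and between 1216 and 2731 in the other 5 mice. Lep, the gene of the satiety hormone leptin, had 67722 in control 3 and between 5997 and 17222 in the others, and Klf14 had 230.1 in control 3 and between 16.5 and 70.2 in the others. These are the mice numbered 3, in which Pparg, Ebf1, Rxra and Zfp423 were highest. Markers of other cell types are given as summed normalized counts, the control range first. Endothelial markers summed to 24659 to 36747 and 24112 to 32283, lymphocyte markers to 1395 to 3092 and 1575 to 2160, and brown adipocyte markers to 3529 to 7552 and 6543 to 11464. Mesothelial markers summed to 157.3 to 470 and 142.0 to 176.5, and epithelial markers to 45.1 to 278 and 34.2 to 39.5. Of the mesothelial markers, Msln, Upk3b and Wt1 were at 0 in some mice and at most 20.1, 3.68 and 3.04 in any mouse. Ucp1, the defining gene of brown fat, was at 0 in control 3 and at most 55.7 elsewhere.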
